A study of Mus musculus with 6 samples.

Results

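The genes described here are 9 genes that make, carry, break down or sense retinoic acid in the mouse uterine luminal epithelium, taken by symbol from the 24964 genes of the deposited expression table. They are the retinol oxidiser Rdh10, the retinaldehyde reducer Dhrs3, the retinaldehyde dehydrogenases Aldh1a1 and Aldh1a3, the retinoic acid hydroxylase Cyp26a1, the carrier Crabp2 and the nuclear receptor genes Rara, Rarg and Rxra. All 9 are in the table, and 6 of them reached the mean of 1 FPKM over the 6 samples that was required for a test. The luminal epithelium (LE), which faces the uterine cavity and meets the embryo first, was taken by laser capture on pregnancy day 4 from 3 Foxo1dd and 3 Foxo1ff samples and read by RNA-seq. Foxo1dd females had the genotype Pgrcre/+Foxo1f/f, and Foxo1ff females had Foxo1f/f. Both groups therefore carry floxed Foxo1 alleles, and the Foxo1dd females also carry 1 copy of a Cre gene at Pgr, the progesterone receptor gene. That Cre acts wherever Pgr is expressed, which in the uterus includes stroma and muscle as well as epithelium, and its insertion disrupts the Pgr copy that holds it. The females were housed with littermates to 8 weeks of age before mating. How many animals each sample holds is not stated in the labels, which number the samples as bioreplicates. The p-values rest on the spread among these samples, part of which may be technical.

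Cells take up retinol, an alcohol carried in blood by the binding protein RBP4, and oxidise it in successive steps to retinaldehyde and to retinoic acid. The first step can be reversed by reductases such as DHRS3, whereas the step run by the ALDH1A enzymes cannot. CYP26 enzymes hydroxylate retinoic acid and so clear it from the cell. Retinoic acid acts by binding RAR proteins, which sit on DNA in pairs with RXR proteins. Cyp26a1 is known in rodents as a gene that progesterone induces in the uterine luminal epithelium before the embryo attaches.

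The promoter of Cyp26a1 is shown because it holds the arrangement that RAR and RXR pairs are known to bind, and 1 window of Rara because it holds the most core motifs of any window of these genes. The sequences are RefSeq promoter windows of build GRCm38.p6, cut to the 250 bases before an annotated start and written 5' to 3' on the strand of the gene. Capitals mark the core motif AGGTCA, its variant with T as the third letter (AGTTCA), and the forms of both that start with G (GGGTCA in place of the first, GGTTCA in place of the variant), or the reverse complement of any of them. The Cyp26a1 window is chr19:37697558-37697807 (plus strand), and the Rara window is chr11:98939461-98939710 (plus strand), which lies inside the Rara gene before an alternative start.
Cyp26a1: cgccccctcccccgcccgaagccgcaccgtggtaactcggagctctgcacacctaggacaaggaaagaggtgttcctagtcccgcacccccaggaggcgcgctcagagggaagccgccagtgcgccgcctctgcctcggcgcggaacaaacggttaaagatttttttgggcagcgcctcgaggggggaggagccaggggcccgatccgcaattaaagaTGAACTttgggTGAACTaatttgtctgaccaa
Rara: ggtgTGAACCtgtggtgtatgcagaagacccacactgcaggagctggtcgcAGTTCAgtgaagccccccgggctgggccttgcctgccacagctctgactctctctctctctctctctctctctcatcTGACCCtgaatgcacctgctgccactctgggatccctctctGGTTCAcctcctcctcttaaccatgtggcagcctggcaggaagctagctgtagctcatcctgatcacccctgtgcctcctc

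In the Cyp26a1 window both core motifs lie on the opposite strand with 5 bases between them, a direct repeat called DR5 that reads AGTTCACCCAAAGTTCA on that strand and ends 16 bases before the start. Both strands were searched, and DR5 was found in 0.0883% of all 32851 promoter windows of this length. The windows of 6 members (Aldh1a1, Cyp26a1, Dhrs3, Rara, Rarg and Rxra) were in the table, 14 windows in all. Some windows of Rara and of Dhrs3 overlap each other, so the 14 are not all separate stretches. Among those 14, 1 held a DR5, 0 held repeats with a spacing of 2 or 1 bases (found in 0.174% and 0.164% of all windows), and 5 held any core motif, which overlaps with the DR5 count (38.6% of all windows). The Rara window has 4 core motifs, none of them in such a repeat. The FOXO core motif GTAAACA was in 0 of the 14 windows and in 3.17% of all windows, and 14 windows are too few to tell these apart. Aldh1a3, Rdh10 and Crabp2 were not matched. These are matches of letters in a short window and do not show that a factor binds.

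Values are FPKM, read counts scaled by gene length and library depth. Each gene was tested on log2(FPKM + 1) with limma over all genes, and a gene counts as called where its Benjamini-Hochberg adjusted p is under 0.05. Summed FPKM was 552190 to 564628 in Foxo1dd and 613186 to 667499 in Foxo1ff samples, and the value of 1 read pointed to a divisor of about 73600000 to 98000000 reads. Foxo1dd 2 stood apart, with 13995 genes above 0 against 15474 to 16062 in the other samples and with the least certain depth. The targeted gene Foxo1 had 1.72, 0.942 and 1.22 FPKM in Foxo1dd and 160.0, 118.5 and 110.8 FPKM in Foxo1ff samples. All 14 epithelial markers were detected in every sample. Epcam was at 383 to 406 FPKM in Foxo1dd and at 497 to 591 FPKM in Foxo1ff samples and was called lower, and Krt18, at 856 to 980 FPKM in Foxo1dd and at 632 to 887 FPKM in Foxo1ff, was not called. Over all tested genes the median log2 change was -0.15 as deposited and -0.03 after median-of-ratios scaling, so small changes are to be read against that shift. In captured tissue, fewer cells of a type and less RNA per cell cannot be told apart.

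Of the 6 tested members, 1 was lower (Cyp26a1), 2 were higher (Rara and Dhrs3) and 3 were not called (Rdh10, Rarg and Rxra). Over all 11427 tested genes, 34.2% were called lower and 22.2% higher, so neither share of the members stands out from the whole table. The Foxo1dd and Foxo1ff values did not overlap for 3 of the 6, Cyp26a1, Rara and Rarg, against 64.2% of all tested genes. The median log2 change of the 6 was -0.01, beside -0.15 for all tested genes. After median-of-ratios scaling, which also calls Rarg, 3 were higher and 1 was lower. That scaling moved the whole table too, with 3072 of the 11427 genes higher and 3431 lower, beside 2533 and 3912 as deposited.

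**Figure D1:**
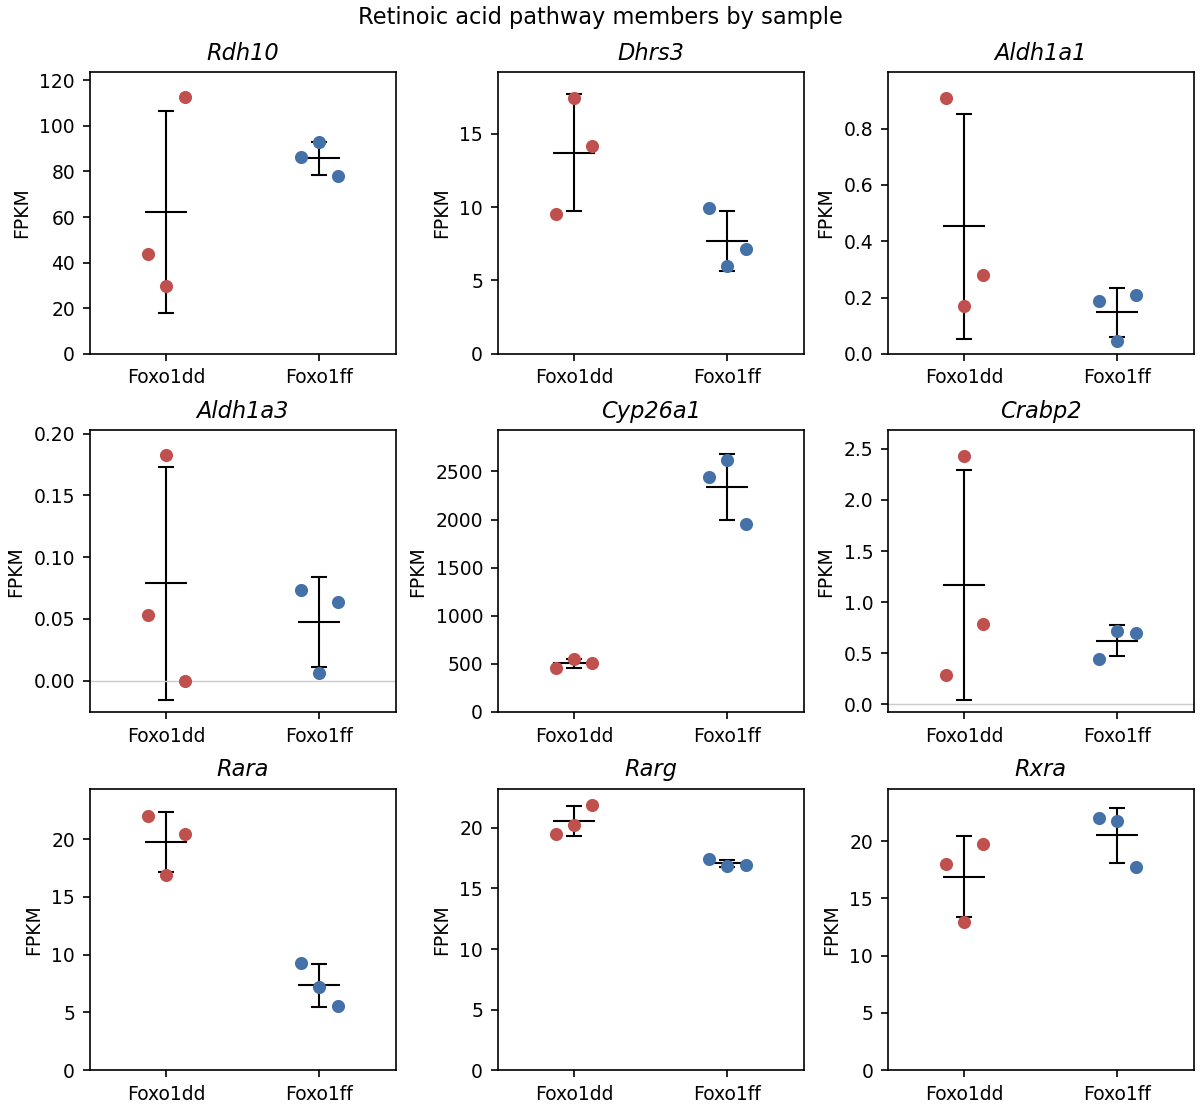
FPKM of the 9 genes in each sample, with Foxo1dd samples left (red) and Foxo1ff samples right (blue); each panel has its own linear axis, and bars show the mean and SD (n = 3 per group). Cyp26a1 lies at 461 to 555 FPKM in Foxo1dd against 1957 to 2614 in Foxo1ff, Rara lies higher in each Foxo1dd sample, and the Rdh10 values of Foxo1dd are spread from 29.97 to 113.

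The breakdown enzyme Cyp26a1 was by far the most abundant member and the one that changed most. Cyp26a1 (chromosome 19, 37697798 to 37701536, plus strand, mm10) had 461, 555 and 504.1 FPKM in the Foxo1dd samples, against 2437, 2614 and 1957 FPKM in the Foxo1ff samples. Every Foxo1dd value was below every Foxo1ff value, and the spread within each group was small beside the gap. The mean was 507 ± 46.8 FPKM in Foxo1dd and 2336 ± 339.9 FPKM in Foxo1ff (SD, n = 3 each), 4.61-fold lower in Foxo1dd. Its log2 change was -2.20 ± 0.15 (SE), with a 95% interval of -2.54 to -1.85 and a limma adjusted p of 5.00e-06. Even so, Cyp26a1 ranked 141st of 24964 genes by mean FPKM in Foxo1dd, and it ranked 23rd in Foxo1ff. Pgr itself, the gene that carries the Cre insertion, moved as well, with 36.2, 29.9 and 28.3 FPKM in Foxo1dd and 2.44, 1.64 and 2.02 FPKM in Foxo1ff samples (log2 change 3.42, limma adjusted p = 7.45e-07). Its part in the Cyp26a1 values was not tested.

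Of the other genes for retinoic acid hydroxylation, 2 were tested and both were lower. Cyp26c1, which lies 4.4 kb before Cyp26a1 on the same strand (37685581 to 37693398), had 2.80, 4.66 and 5.92 FPKM in Foxo1dd and 13.4, 14.4 and 9.72 FPKM in Foxo1ff samples. It fell as well, with a log2 change of -1.33 ± 0.24 (SE, limma adjusted p = 0.00135), and its groups did not overlap. Cyp26b1, the third CYP26 gene, was listed at 0 in all 3 Foxo1dd samples and at 0.037, 0.075 and 0.015 FPKM in Foxo1ff, below the minimum for a test. Cyp26a1 made up 98.8% to 99.4% of the summed FPKM of the 3 CYP26 genes in Foxo1dd samples and 99.4% to 99.5% in Foxo1ff samples. Cyp2s1, a P450 whose human form can oxidise retinoic acid, had 4.03, 4.74 and 4.32 FPKM in Foxo1dd and 62.0, 60.6 and 38.8 FPKM in Foxo1ff samples (log2 change -3.32, limma adjusted p = 1.60e-06). Cyp2s1 lies opposite exons of Gm26707, so part of its reads is uncertain.

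By the likeness of their pattern over the 6 samples, measured as the root mean square difference of centred log2(FPKM + 1) values, the nearest tested genes to Cyp26a1 were Gm2a, Hephl1 and Klf7. Their differences were 0.074, 0.090 and 0.095, a description with no test. Likeness on this scale is not likeness of fold, since the added 1 shrinks the changes of low genes. Mean FPKM in Foxo1dd was 5.06-fold lower for Gm2a and 7.76-fold for Klf7, against 4.61-fold for Cyp26a1. For Hephl1 the ratio was 2022-fold, but it divides by a Foxo1dd mean near 0, so its size is not a reliable fold. Gm2a, which encodes a lysosomal ganglioside-binding protein, had 14.7, 17.7 and 14.4 FPKM in Foxo1dd and 84.0, 83.7 and 68.8 FPKM in Foxo1ff samples. Hephl1, a hephaestin-like gene, had 0.005, 0 and 0 FPKM in Foxo1dd and 3.48, 3.89 and 2.74 FPKM in Foxo1ff. Klf7, a zinc finger transcription factor gene, had 1.14, 1.68 and 1.21 FPKM in Foxo1dd and 12.1, 11.2 and 7.89 FPKM in Foxo1ff, and it lies opposite exons of 2 unnamed gene models.

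At the first step of synthesis, the oxidiser Rdh10 was not called and the reductase Dhrs3 was higher. Rdh10 (chromosome 1, 16105774 to 16133734, plus strand), which turns retinol into retinaldehyde, had 43.7, 29.97 and 113 FPKM in Foxo1dd and 86.3, 92.8 and 78.1 FPKM in Foxo1ff samples. The Foxo1dd samples fall on both sides of the Foxo1ff range, with replicate 3 above it and the other two below it. Its log2 change was -0.68 ± 0.39 (SE), with a 95% interval of -1.56 to 0.20 and a limma adjusted p of 0.168. Without Foxo1dd replicate 3 the change was -1.22 and passed the test (limma adjusted p = 4.87e-04), so this library alone decides the call.

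Dhrs3 (chromosome 4, 144892827 to 144928209, plus strand), which reduces retinaldehyde back to retinol, had 9.50, 17.4 and 14.2 FPKM in Foxo1dd and 9.92, 5.98 and 7.12 FPKM in Foxo1ff samples. The groups overlap, since Foxo1dd 1 is below Foxo1ff 1. The log2 change was 0.75 ± 0.24 (SE, 95% interval 0.21 to 1.29, limma adjusted p = 0.0246), and the ratio of means was 1.78. The call was lost without Foxo1dd replicate 2 (adjusted p = 0.0677), Foxo1dd replicate 3 (0.0593), Foxo1ff replicate 2 (0.0962) or Foxo1ff replicate 3 (0.0686), and with no filter on low genes (0.0697). Dhrs3 made up 17.9%, 36.7% and 11.1% of the summed FPKM of Dhrs3 and Rdh10 in the Foxo1dd samples and 10.3%, 6.06% and 8.36% in the Foxo1ff samples. Each Foxo1dd share was above each Foxo1ff share, a mean difference of 13.7 percentage points (two-sided exact permutation p = 0.1, the smallest that 3 against 3 samples allow). Without Foxo1dd replicate 2 the difference was 6.27 points. Rdh10 stayed the more abundant of the pair in all 6 samples.

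At the second step, both members were scarce and the enzyme with most of the signal was Aldh1a2, which is not a member. Aldh1a1 (chromosome 19, 20492715 to 20643465, plus strand) had 0.909, 0.170 and 0.280 FPKM in Foxo1dd and 0.186, 0.047 and 0.208 FPKM in Foxo1ff samples. Aldh1a3 (chromosome 7, 66390890 to 66427517, minus strand) had 0.053, 0.183 and 0 FPKM in Foxo1dd and 0.073, 0.006 and 0.064 FPKM in Foxo1ff samples. For both genes the groups overlap, and both lay below the minimum for a test. At the exon lengths of GENCODE M21, the Aldh1a1 values stand for about 62 to 345 reads in Foxo1dd and 23 to 84 reads in Foxo1ff libraries, and the Aldh1a3 values for about 0 to 62 and 3 to 30 reads.

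Aldh1a2 (chromosome 9, 71215789 to 71296243, plus strand) had 1.27, 0.484 and 1.16 FPKM in Foxo1dd and 6.96, 5.85 and 3.63 FPKM in Foxo1ff samples. It fell, with no overlap between the groups and a log2 change of -1.70 ± 0.26 (SE, limma adjusted p = 4.55e-04). Together the 3 ALDH1A genes summed to 2.23, 0.837 and 1.44 FPKM in Foxo1dd and 7.22, 5.91 and 3.90 FPKM in Foxo1ff samples, all far below Cyp26a1. Aldh1a1 made up 40.7%, 20.3% and 19.4% of that sum in Foxo1dd and 2.58%, 0.796% and 5.33% in Foxo1ff samples, a difference in means of 23.9 percentage points (two-sided exact permutation p = 0.1, the smallest possible). Aldh1a7, a close copy of Aldh1a1 with which reads could be exchanged, had 0.189 to 0.289 FPKM in Foxo1dd and 0 to 0.010 FPKM in Foxo1ff samples.

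The ratio of the hydroxylase to the summed dehydrogenases did not separate the genotypes. Cyp26a1 FPKM was 206, 663 and 349 times the ALDH1A sum in the Foxo1dd samples and 338, 443 and 501 times in the Foxo1ff samples. The groups overlap, and the log2 difference of -0.22 had a two-sided exact permutation p of 0.8. Without Foxo1dd replicate 1 this difference was 0.19, of the opposite sign. This ratio was chosen after its parts had been seen.

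**Figure D2:**
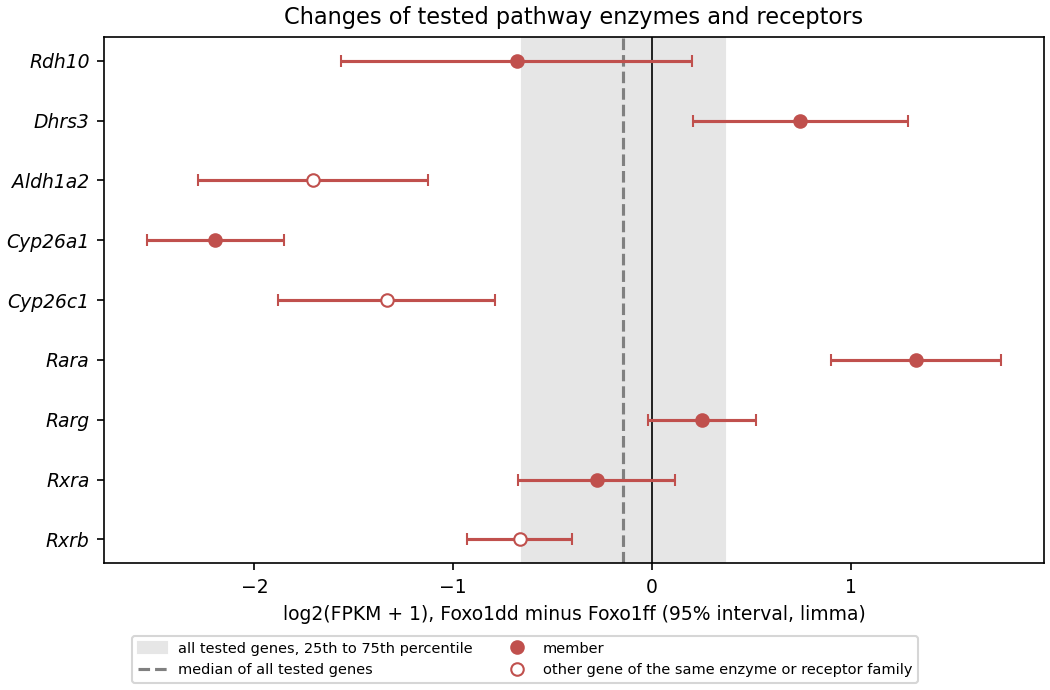
Log2 changes (Foxo1dd minus Foxo1ff, on log2(FPKM + 1)) of the tested members (filled) and of tested genes of the same enzyme or receptor families (open), with 95% limma intervals; the grey band spans the 25th to 75th percentile of all tested genes. Cyp26a1 at -2.20, Aldh1a2 at -1.70 and Cyp26c1 at -1.33 lie left of the band, and Rara at 1.33 and Dhrs3 at 0.75 right of it. Rdh10 at -0.68 and Rxrb at -0.67 lie just left of its edge at -0.65. The intervals of Rdh10, Rarg and Rxra cross 0.

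Crabp2 (chromosome 3, 87948666 to 87953376, plus strand), which carries retinoic acid to RARs in the nucleus, had 0.288, 2.43 and 0.784 FPKM in Foxo1dd and 0.449, 0.721 and 0.698 FPKM in Foxo1ff samples. Its mean over all samples, 0.896 FPKM, lay just below the minimum, and the Foxo1ff values fall inside the Foxo1dd range. The highest value is from Foxo1dd 2, the library with the fewest genes detected. Fabp5, which can carry retinoic acid to another receptor, PPARD, was higher, with 5.38, 2.55 and 4.03 FPKM in Foxo1dd and 0.847, 1.64 and 1.37 FPKM in Foxo1ff samples (log2 change 1.10, limma adjusted p = 0.00478). The sister carrier Crabp1 had 0.291, 0.202 and 0.646 FPKM in Foxo1dd and was listed at 0 in the Foxo1ff samples, too low for a test.

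Among the receptors, Rara was higher. Rara (chromosome 11, 98927818 to 98974942, plus strand), which encodes RAR alpha, had 22.0, 16.9 and 20.4 FPKM in Foxo1dd and 9.30, 7.19 and 5.58 FPKM in Foxo1ff samples, with no overlap. Its mean was 2.68-fold higher, and its log2 change was 1.33 ± 0.19 (SE, 95% interval 0.90 to 1.76, limma adjusted p = 3.30e-04). Rarg (chromosome 15, 102234938 to 102257517, minus strand), which encodes RAR gamma, had 19.5, 20.3 and 21.9 FPKM in Foxo1dd and 17.4, 16.9 and 16.9 FPKM in Foxo1ff samples. All Foxo1dd values lie above the Foxo1ff values but by little, a log2 difference of 0.25 ± 0.12 (SE, 95% interval -0.02 to 0.52, limma adjusted p = 0.101). After median-of-ratios scaling and after quantile normalization the Rarg difference was 0.37 and 0.39 and passed the test (limma adjusted p = 0.0202 and 0.0150). Rarb had 0.106 to 0.150 FPKM in Foxo1dd and 0.062 to 0.224 FPKM in Foxo1ff samples, below the minimum, and overlaps exons of Top2b on the opposite strand.

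As a share of the summed FPKM of the 3 RAR genes, Rara was 52.8%, 45.2% and 48.2% in Foxo1dd and 34.7%, 29.7% and 24.5% in Foxo1ff samples. Every Foxo1dd share was the higher, a mean difference of 19.1 percentage points (two-sided exact permutation p = 0.1, the smallest possible). Rarg was therefore the more abundant RAR in every Foxo1ff sample, whereas in Foxo1dd samples Rara and Rarg were near equal.

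Of the RXR genes, Rxrb was lower and Rxra was not called. Rxra (chromosome 2, 27676440 to 27762957, plus strand), which encodes the RXR alpha partner, had 18.0, 13.0 and 19.7 FPKM in Foxo1dd and 22.1, 21.7 and 17.7 FPKM in Foxo1ff samples, with overlapping groups. Its log2 difference was -0.28 ± 0.17 (SE, 95% interval -0.67 to 0.12, limma adjusted p = 0.207), and -0.11 without Foxo1dd replicate 2. Rxrb, the other RXR gene with signal, fell to 22.1, 20.1 and 23.2 FPKM in Foxo1dd, against 34.6, 35.9 and 34.8 FPKM in Foxo1ff (log2 change -0.67 ± 0.12 SE, limma adjusted p = 0.00108). Rxrg was listed at 0 in all 6 samples. The Rxra share of summed RXR FPKM was 44.9%, 39.3% and 46.0% in Foxo1dd and 38.9%, 37.7% and 33.7% in Foxo1ff samples, a difference of 6.59 percentage points (two-sided exact permutation p = 0.1).

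Set against each other within a sample, summed RAR FPKM was 1.04, 1.13 and 0.989 times summed RXR FPKM in the Foxo1dd samples and 0.473, 0.419 and 0.433 times in the Foxo1ff samples. The groups are far apart beside their spread, at a log2 difference of 1.25 (two-sided exact permutation p = 0.1, the smallest possible), and a ratio within a sample does not move with library scaling. RAR sums were 37.3 to 42.4 FPKM in Foxo1dd and 22.7 to 26.8 FPKM in Foxo1ff, and RXR sums were 33.1 to 42.9 and 52.5 to 57.7 FPKM. This ratio too was chosen after its parts had been seen.

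**Figure D3:**
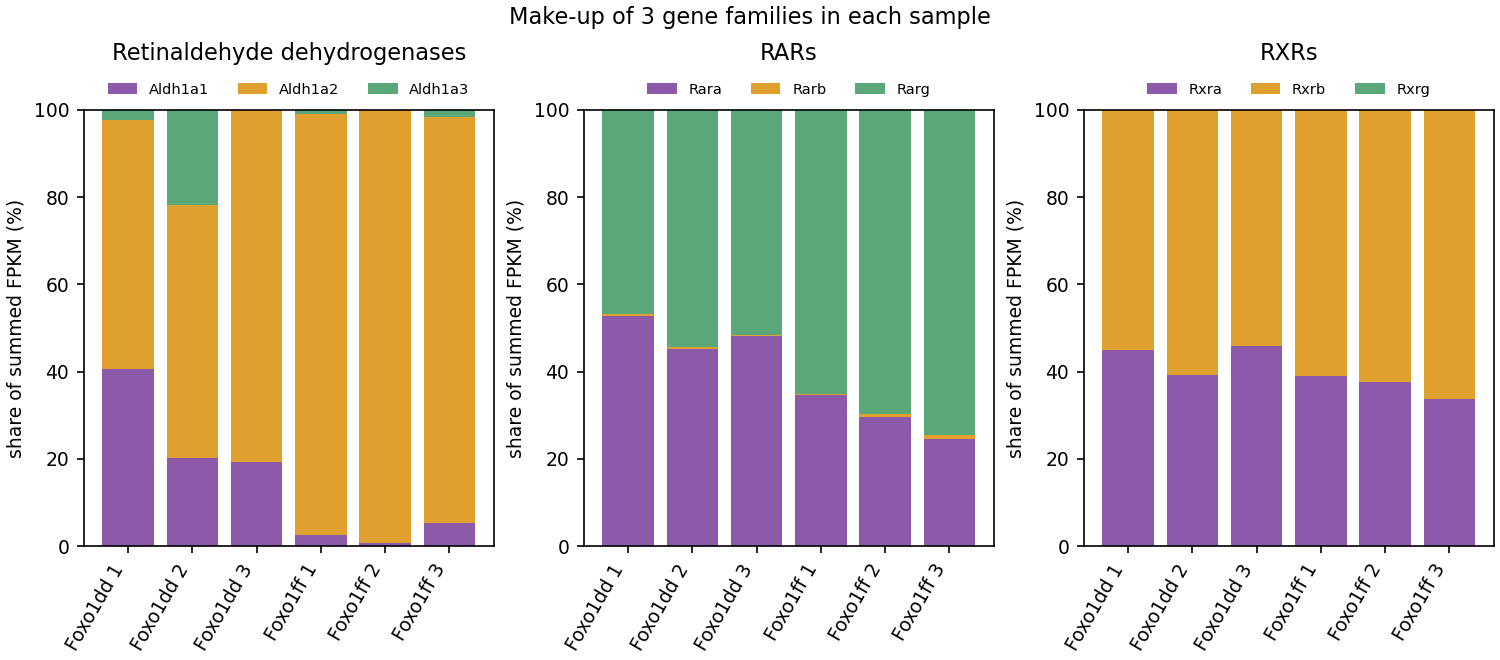
Share of each gene in the summed FPKM of the retinaldehyde dehydrogenase, RAR and RXR families in each sample, Foxo1dd samples left of Foxo1ff samples; bars add to 100% and Rxrg is at 0. Rara takes 45.2% to 52.8% of RAR signal in Foxo1dd against 24.5% to 34.7% in Foxo1ff, and Aldh1a2 takes 56.9% to 80.6% of the dehydrogenase signal in Foxo1dd against 93.0% to 99.1% in Foxo1ff.

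By mean FPKM the members ran in the order Cyp26a1, Rdh10, Rarg, Rara, Rxra, Dhrs3, Crabp2, Aldh1a1 and Aldh1a3 in Foxo1dd. The values of Rarg and Rara, of Rara and Rxra, and of Rxra and Dhrs3 overlap there, as do those of Crabp2 and Aldh1a1 and those of Aldh1a1 and Aldh1a3. In Foxo1ff the order was Cyp26a1, Rdh10, Rxra, Rarg, Dhrs3, Rara, Crabp2, Aldh1a1 and Aldh1a3. Here the neighbours with overlapping values were Dhrs3 and Rara, and Aldh1a1 and Aldh1a3. Rara thus stood below Dhrs3 in mean level in Foxo1ff and above it in Foxo1dd.

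Beyond the members, 79 other genes of retinoid handling and response were looked up, of which 47 were tested, 15 were higher, 16 were lower and 16 were not called. Over all 11427 tested genes, 22.2% were called higher and 34.2% lower, and the counts of each list below are to be read beside these shares. Counts after median-of-ratios scaling are to be read beside the 3072 higher and 3431 lower of all tested genes under that scaling. The median log2 change of the 47 was 0.01, beside -0.15 for all tested genes, and 8 of the 79 were listed at 0 in all samples.

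Uptake genes changed in opposite directions. Of 10 genes of uptake and binding, 6 were tested, 3 were higher and 3 were lower. Stra6l, which encodes a second cell-surface receptor for RBP4, had 0.202, 0.007 and 0.145 FPKM in Foxo1dd and 18.8, 30.3 and 26.5 FPKM in Foxo1ff samples (log2 change -4.53, limma adjusted p = 5.65e-07). Rbp4, the retinol carrier itself, was listed at 0 in all Foxo1dd samples and at 6.73, 22.1 and 9.38 FPKM in Foxo1ff samples, and was called lower (limma adjusted p = 3.33e-05). Lrp2, the endocytic receptor megalin, which can take up RBP4, had 91.7, 90.1 and 152 FPKM in Foxo1dd and 7.72, 4.74 and 5.85 FPKM in Foxo1ff samples (log2 change 3.96, limma adjusted p = 1.70e-06). Named after their values were seen, Stra6, the first known RBP4 receptor, was also higher (4.37, 3.06 and 1.76 FPKM in Foxo1dd, 1.00, 0.618 and 1.122 FPKM in Foxo1ff), Fabp5 was higher as given above, and the retinol-binding Rbp7 was lower (log2 change -1.60).

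Of 8 genes of retinyl ester storage and carotenoid cleavage, 4 were tested, 2 were higher and 0 were lower. The 2 that rose encode lipid hydrolases that can release retinol from its esters. Ces1d had 8.98, 11.1 and 21.1 FPKM in Foxo1dd and 0.080, 0.196 and 0.135 FPKM in Foxo1ff samples, and belongs to a cluster of similar carboxylesterase genes whose reads may be shared. Lipe had 6.20, 8.67 and 8.02 FPKM in Foxo1dd and 2.19, 1.60 and 1.55 FPKM in Foxo1ff samples, and lies opposite exons of 4732471J01Rik. Lrat, which esterifies retinol, had 7.60 to 8.51 FPKM in Foxo1dd and 4.68 to 26.4 FPKM in Foxo1ff samples and was not called (limma adjusted p = 0.338).

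Of 19 other genes that interconvert retinol and retinaldehyde, 11 were tested, 3 were higher and 5 were lower (3 and 3 after median-of-ratios scaling). Those with the smallest p were Akr1b8, an aldo-keto reductase gene (log2 change -2.27, limma adjusted p = 1.36e-04), Adh5, an alcohol dehydrogenase gene (0.91, adjusted p = 4.46e-04), and Dhrs7 (-1.123, adjusted p = 0.00203). The others, named after their values were seen, were Rdh1 and Rdh9, which were higher (1.501 and 1.27) but both share exons with Rdh16f1 on the same strand, and Adh7, Rdh13 and Dhrs4, which were lower (-0.63, -0.42 and -0.42). The calls of Adh7, Rdh13 and Dhrs4 were each lost on leaving out at least 1 sample.

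Of 20 genes known to respond to retinoic acid in other tissues, 10 were tested, 4 were higher and 2 were lower (5 and 2 after median-of-ratios scaling). Zfp503, a zinc finger gene, had 10.8, 9.16 and 9.72 FPKM in Foxo1dd and 43.4, 46.2 and 33.6 FPKM in Foxo1ff samples (log2 change -1.94, limma adjusted p = 9.17e-06). Tgm2, a transglutaminase gene with antisense exons of Rprd1b, had 72.1, 49.9 and 67.6 FPKM in Foxo1dd and 175, 110 and 156 FPKM in Foxo1ff samples. Nrip1, a nuclear receptor corepressor gene, was higher, with 31.1, 19.0 and 34.5 FPKM in Foxo1dd and 8.32, 7.04 and 6.74 FPKM in Foxo1ff samples. Stra6, Zfp703 and Sox9, named after their values were seen, were the other higher genes, with log2 changes of 1.04, 1.39 and 2.51. Among those below the minimum were Rarb, Cyp26b1 and Hoxb1, and Cdx1 and Stra8 were among those listed at 0 in every sample.

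**Figure D4:**
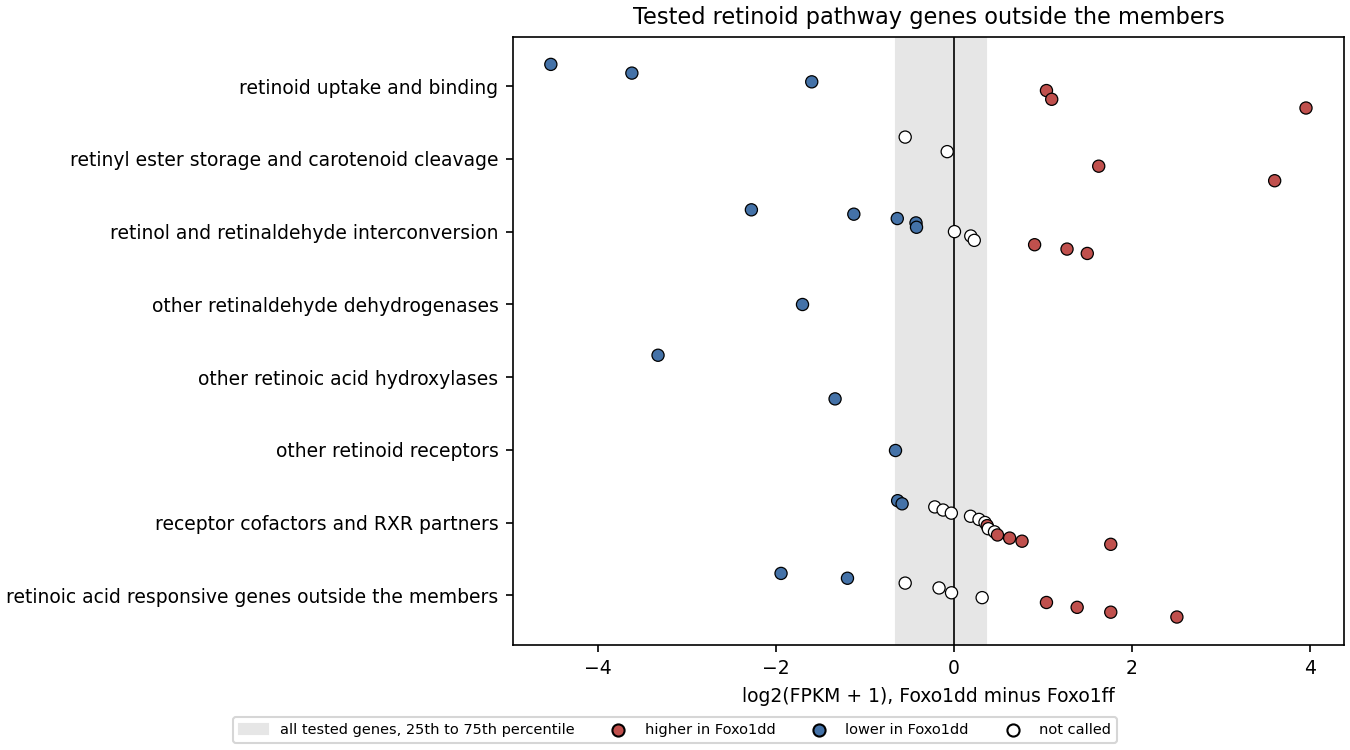
Log2 changes (Foxo1dd minus Foxo1ff, on log2(FPKM + 1)) of the tested retinoid pathway genes outside the members, by list; red points are called higher in Foxo1dd, blue points lower, white points not called, and a gene on 2 lists appears in both. Points reach both sides of the grey band, which spans the 25th to 75th percentile of all tested genes, from Stra6l at -4.53 to Lrp2 at 3.96.

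Markers of other cells in the uterus, and of the epithelium itself, were read from the same 6 samples. Of 9 glandular markers, which include Aldh1a1, 5 were tested, 3 fell and 2 rose, and their summed level was 7.49 to 28.8 FPKM in Foxo1dd and 53.4 to 214 FPKM in Foxo1ff samples. Most of the Foxo1ff sum was Spink1, at 0 to 0.307 FPKM in Foxo1dd and 44.2 to 178 FPKM in Foxo1ff, and without it the sums overlap, at 7.43 to 28.5 FPKM in Foxo1dd and 4.19 to 35.6 FPKM in Foxo1ff. Prss28 and Prss29 fell as well, and Sox9 and Lif rose. Ttr was at 0 in all samples and the gland regulator Foxa2 was at 0.399 to 0.908 FPKM in Foxo1dd and 0.643 to 1.36 FPKM in Foxo1ff samples. Of 14 stroma markers, 11 were tested, 3 rose and 0 fell, and they summed to 43.6 to 62.3 FPKM in Foxo1dd and 39.5 to 46.1 FPKM in Foxo1ff samples, with overlapping sums and none of the 14 at 0 in all samples. Of 12 leukocyte markers, 6 were tested, 2 rose and 4 fell, with sums of 71.9 to 91.8 FPKM in Foxo1dd and 37.9 to 83.3 FPKM in Foxo1ff, and S100a8 was at 0. Most of the Foxo1dd sum was Laptm5, at 53.2 to 70.7 FPKM in Foxo1dd and 2.73 to 5.78 FPKM in Foxo1ff. Without it the sums were 16.0 to 21.1 FPKM in Foxo1dd and 32.1 to 79.7 FPKM in Foxo1ff, and the 4 that fell were Ptprc, Lyz2, C1qa and Csf1r. Of 8 smooth muscle markers, 4 were tested, 2 rose and 0 fell, and they summed to 9.25 to 13.4 FPKM in Foxo1dd and 3.55 to 6.62 FPKM in Foxo1ff, but without Synpo2 the sums overlap, at 5.34 to 7.01 FPKM in Foxo1dd and 3.41 to 6.05 FPKM in Foxo1ff. Of 10 endothelial markers only Sox17 and Egfl7 were tested, 1 of which rose and 1 of which fell, and the 10 summed to 259.6 to 364.7 FPKM in Foxo1dd and 50.3 to 61.0 FPKM in Foxo1ff, mostly from Sox17 (5.62 to 7.59 FPKM in Foxo1dd and 5.85 to 7.15 FPKM in Foxo1ff without it), with Pecam1 at 0.179 to 0.227 FPKM in Foxo1dd and 0.065 to 0.128 FPKM in Foxo1ff. The 14 luminal and pan-epithelial markers were all tested, 7 rose and 3 fell, at sums of 4860 to 6103 FPKM in Foxo1dd and 3015 to 4083 FPKM in Foxo1ff. The 3 that fell were Epcam, Cdh1 and Klf5, and among the 7 that rose, Calb1 was 130.3-fold, Lpar3 33.6-fold and Krt19 8.73-fold higher in Foxo1dd. The part of these cells in the values of the members was not tested.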

How the data were processed

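RNA-seq was made from 3 Foxo1dd and 3 Foxo1ff samples, grouped by their titles. The deposited table holds 1 FPKM value per gene and sample, computed by the authors. The build mm10 and the tools STAR 2.5.2b, Subread, featureCounts 1.5.0-p1, DESeq2 1.12.4 and edgeR 3.28.0 appear in the submitters' processing notes, which give them no roles. Not given in the sources used here are the annotation, gene lengths, strand setting and any scaling across libraries, so reads of antisense or near-identical genes may be shared.

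FPKM are not counts, so log2(FPKM + 1) was fitted with limma 3.58.1 in R 4.3.3 (lmFit, eBayes with a trend), genotype being the only term. The 11427 genes whose mean reached 1 FPKM were tested, and p-values were adjusted over all of them at a threshold of 0.05. On simulated data the fit recovered 59% of genes given a log2 change of 1 and 95.5% of genes given a log2 change of 2. A gene not called may therefore still have changed. A log2 change on this scale understates the change of low genes. Folds are ratios of mean FPKM. Family shares and ratios were compared by exact permutation over samples.

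Depth was read from microRNA and small nucleolar RNA genes, as the largest step at which 80% of values under 12 reads came out whole, with a tolerance of 0.05 read (26 genes in Foxo1dd 2, 93 to 132 in the others). No count test was run.

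The members and gene lists were chosen with earlier results of these data known. Genes named outside the members are called genes with the 3 smallest p of each list, genes that complete a family, and the 3 nearest in pattern to the member with the largest change. Any other was chosen after its values were seen. A few genes of the lists are counted but not reported here by name. Positions are from GENCODE M21, whose symbols match 24423 of the 24964 in the table. Alternatives were other pseudocounts, filters and scalings, eBayes without a trend, a replicate block and leaving out each sample.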

Additional observations from a re-analysis of the deposited data

How the results depend on the processing

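Cyp26a1, Rara, Rxra and Foxo1 changed neither direction nor call under any of the 14 alternatives run for each, the Cyp26a1 change lying between -2.32 and -1.91 that of Rara between 1.17 and 1.49 and that of Rxra between -0.39 and -0.11. The Dhrs3 call was lost with no filter (log2 change 0.75, limma adjusted p = 0.0697), which left 1 member called higher. On leaving out each sample, the Dhrs3 change ran from 0.57 to 0.97, that of Rdh10 from -1.22 to -0.28, and members called higher and called lower from 1 to 2 each. Rarg passed the test after median-of-ratios scaling (0.37) and quantile normalization (0.39). The causes were not tested. The Cyp26a1 to ALDH1A ratio ran from -0.65 to 0.19 (log2 difference) on leaving out each sample. A minimum mean of 5 FPKM gave no value for Aldh1a2, and genes below 1 FPKM have no test.

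Same-numbered samples did not deviate together in every pair (r over genes of 0.12, 0.11 and -0.13), and not every sample correlated best with its own number, so the bioreplicate number was not taken as a pairing. With it as a replicate block, 2417 genes were higher and 3724 lower (2533 and 3912 without it). Of the members, 2 were higher and 1 was lower. The calls of Rdh13 and Nr2f2 were lost (limma adjusted p = 0.0559 and 0.0712). No other call changed among the tested members, Foxo1, Pgr, the nearest genes to Cyp26a1 and the called pathway genes outside the members. Other named genes were not checked with the block.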

Other observations

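Receptors that pair with RXR and cofactors of nuclear receptors were read from the same fit. Of 19 such genes, 15 were tested, 5 were higher and 2 were lower, with a median log2 change of 0.35. After median-of-ratios scaling 9 were higher and 1 was lower. Over all 11427 tested genes, 2533 were higher and 3912 lower as deposited, and 3072 and 3431 after that scaling. Nrip1 had the smallest p, with a log2 change of 1.76 (limma adjusted p = 1.27e-04). Hdac3, the deacetylase of corepressor complexes, had 69.3, 82.7 and 74.9 FPKM in Foxo1dd and 43.8, 47.2 and 41.0 FPKM in Foxo1ff samples (log2 change 0.77, limma adjusted p = 5.48e-04). Thra, a thyroid hormone receptor gene that overlaps antisense exons of Nr1d1, had 19.3, 17.9 and 18.1 FPKM in Foxo1dd and 11.9, 11.9 and 11.0 FPKM in Foxo1ff samples (log2 change 0.63, limma adjusted p = 0.00213).

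Named after their values were seen, Nr2f6 and Nr2f2 were the other higher genes (log2 changes 0.49 and 0.38), and Ncoa3 and Nr1h3 the lower ones (-0.63 and -0.58). The calls of these 4 were each lost on leaving out at least 1 sample. Ppard, the receptor reached through Fabp5, had 5.83, 5.54 and 6.85 FPKM in Foxo1dd and 5.83, 4.85 and 4.92 FPKM in Foxo1ff samples and was not called (limma adjusted p = 0.333). The corepressor gene Ncor1 was not called (limma adjusted p = 0.104), at 20.8 to 33.1 FPKM in Foxo1dd and 16.0 to 26.1 FPKM in Foxo1ff samples. Vdr, the vitamin D receptor gene, lay below the minimum, at 0, 0 and 0.130 FPKM in Foxo1dd and 0.242, 0.550 and 0.255 FPKM in Foxo1ff samples.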
